A study of Mus musculus with 12 samples.

Results

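The genes described here copy the genome in S phase: they recognise and license replication origins, fire them, unwind and copy the DNA, and supply its building blocks. They were chosen by name, from a set of 55 symbols of S phase and DNA replication genes, and 54 of them stood among the 41079 gene IDs of the tables. The symbol without an entry was Claspn. RNA came from mouse embryonic stem cells, pluripotent cells derived from the blastocyst, in 12 libraries of 4 groups. One pair of groups was labelled Bod1L WT, untreated or given etoposide, which poisons topoisomerase II so that DNA breaks persist. The other pair was labelled Bod1L KO, with the same treatments, and the labels name tamoxifen for these knockout libraries alone. A difference between genotypes could therefore come from loss of Bod1l or from tamoxifen, and those cannot be told apart. Each group held 3 libraries labelled as biological replicates. The labels do not describe the line or clone, separate cultures, the deleted part of Bod1l, or the dose and time of either drug, so p-values here reflect library-to-library spread, which may be technical.

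Replication begins when the origin recognition complex (ORC) binds DNA and, with Cdc6 and Cdt1, loads the MCM helicase ring in G1. At the start of S phase the kinases Cdc7 and Cdk2 turn loaded rings into active CMG helicases, made of MCM, Cdc45 and GINS, and polymerases, the PCNA clamp and RPA then build the fork. Many of these genes are textbook targets of E2F transcription factors, which drive entry into S phase, and embryonic stem cells are known for a short G1 and a large share of cells in S phase.

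Bod1l RNA, which checks the labels, was 48.5, 48.8 and 50.6 TPM (a transcript level scaled by gene length and to the library's total) in untreated wild type and 12.0, 11.2 and 11.5 TPM in the untreated knockout. With etoposide it was 46.5, 51.1 and 48.6 TPM in wild type and 13.0, 12.4 and 11.7 TPM in the knockout. Depth was 5.23 to 7.76 gigabases of aligned sequence per library, and replicates correlated at r = 0.994 to 0.995 across genes. Summed over 9 stem cell markers found in the tables, the level was 6992 to 8165 TPM, against 6.12 to 9.45 TPM for 8 feeder fibroblast markers, with Postn and Lum under 0.1 TPM in every library. Markers of extraembryonic endoderm summed to 79.6 to 86.5 TPM in the wild-type libraries and 110.4 to 135 TPM in the knockout ones. Lama1 was the largest part, at 55.7 to 106 TPM over all libraries, then Col4a1. Gata4, Gata6, Sox17, Foxa2 and Sox7 reached at most 1.94 TPM, and Dab2 at most 2.85 TPM. The stem cell sum was 7644 to 8165 TPM in wild type and 6992 to 7480 TPM in the knockout, with Dppa5a the largest part (3198 to 4082 TPM). By the limma test given below, 4 of the 9 stem cell markers were lower and 0 higher in the untreated knockout. With etoposide 4 were lower and 4 higher. Of the 4 endoderm markers with a level high enough to test, 4 were higher untreated and 3 with etoposide, and 0 were lower. Over all tested genes 21.5% were lower and 28.1% higher untreated, and 21.7% and 22.5% with etoposide. The part of these shifts in the results below was not tested.

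All 54 replication genes passed the filter of a mean of at least 1 TPM that left 14107 genes for testing. Their mean levels ran from 10.6 TPM for Ccne2, which encodes cyclin E2, to 565 TPM for Pcna, the sliding clamp, and the median was 108 TPM against 20.8 TPM over all tested genes. The coefficient of variation within a group had a median of 2.29% over these genes and groups, and its highest value, 23.7%, belonged to Orc3 in the treated knockout. Differences between groups are given on the log2(TPM + 1) scale with their standard errors, and a gene is said to have risen or fallen where the limma test, adjusted by Benjamini-Hochberg over all 14107 genes, gave a p under 0.05.

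Replication genes were in most cases slightly lower in the knockout or not called, and 2 subunits of ORC stood apart from the rest. In untreated cells 24 of the 54 were lower in the knockout, 4 were higher and 26 were not called. The shares over all tested genes were 21.5% lower and 28.1% higher, or 49.6% in either direction, against 44.4% lower and 7.41% higher for the replication genes. The median difference of the 54 genes was -0.06, against 0.04 over all tested genes. Knockout libraries all lay below wild type for 27 of the 54, against 24.7% of all tested genes, and all above for 6, against 32.8%. With etoposide, 22 were lower in the knockout and 4 higher, where 21.7% and 22.5% of all tested genes, 44.1% in all, were called in those directions; the median was -0.06 against 0.02. There, 25 of the 54 lay wholly below wild type, against 26.1% of all tested genes, and 7 wholly above, against 28.1%. The count of 4 higher genes became 2 without replicate 3 of the treated wild type or replicate 1 of the treated knockout. The sets overlapped: 19 genes were lower and 3 were higher in both comparisons of genotype, which use separate libraries. The share of all tested genes called in both was not counted, so this overlap is not shown to be particular to replication genes. Most changes were small. Past 1.5-fold, a size that 9.56% of all tested genes reached with a call in untreated cells and 7.74% with etoposide, lay only Orc5 and Orc3 without the drug and Orc5 alone with it. Under at least 1 alternative the untreated calls of Cdc6, Mcm2, Pcna, Pola1, Rfc1, Tk1 and Orc6 were lost, as were the treated calls of Mcm4, Mcm7, Orc3, Cdc7 and Orc6. In bulk RNA, fewer cells in S phase and less RNA of these genes per cell cannot be told apart.

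**Figure D1:**
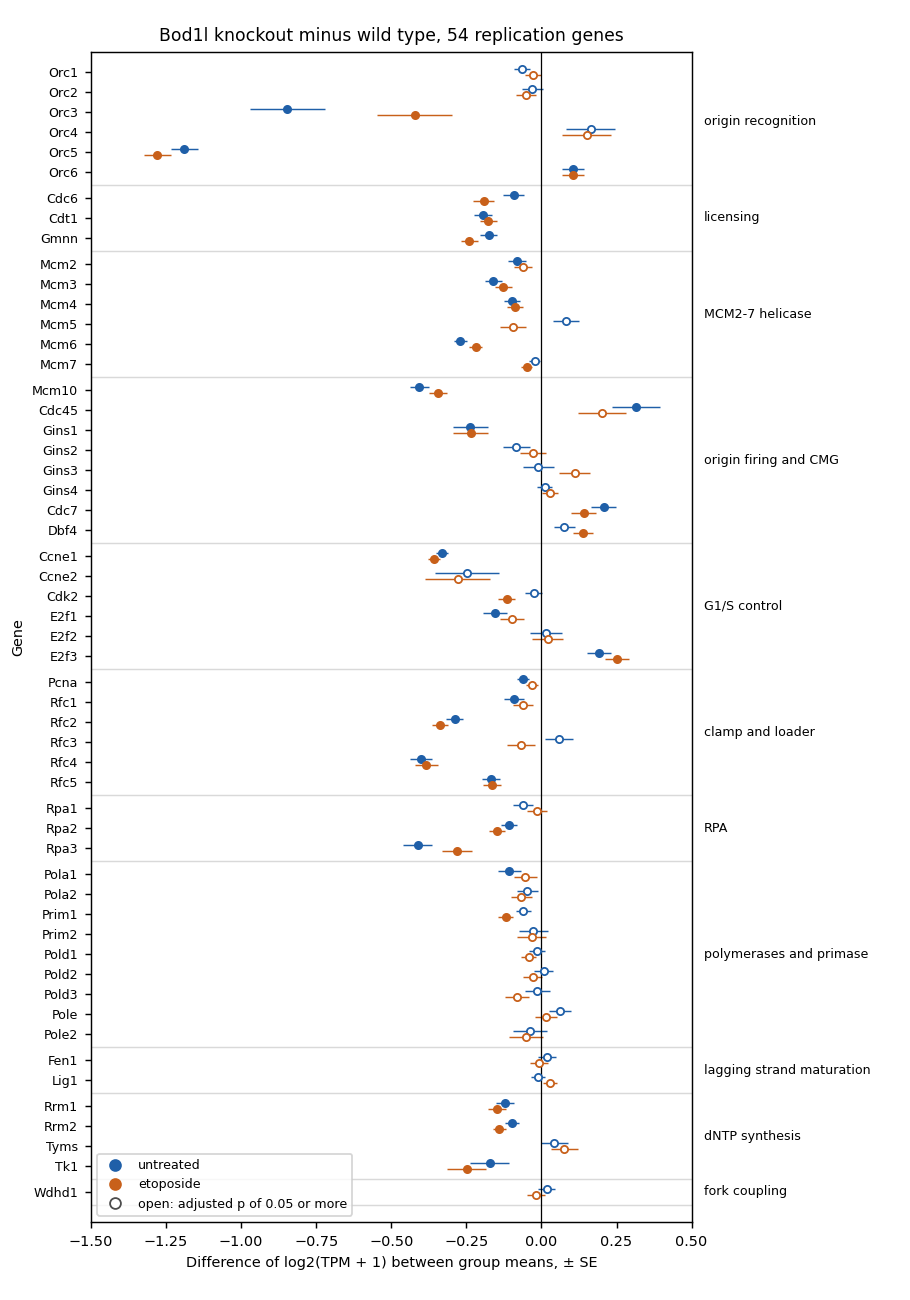
Difference between knockout and wild type on the log2(TPM + 1) scale (horizontal axis, bars ± SE of the limma fit on 3 libraries a group) for each of the 54 replication genes, grouped by role, in untreated (blue) and etoposide-treated (orange) cells. Filled points passed an adjusted p of 0.05. Orc5 stands at -1.19 untreated and -1.28 with etoposide, far to the left of the other genes, and Orc3 at -0.85 and -0.42.

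ORC is a complex of 6 subunits that marks origins, and its subunits did not move together. Orc5, an ATP-binding subunit (chr5:22691478-22755358, minus strand on GRCm39), was 103, 108 and 104 TPM in untreated wild type and 46.8, 42.6 and 47.0 TPM in the untreated knockout. With etoposide it was 109, 111 and 111 TPM in wild type and 42.6, 47.2 and 45.0 TPM in the knockout. The genotypes were far apart in both treatments, and the knockout mean was 43.4% of the wild-type mean without the drug and 40.7% with it. The difference was -1.19 ± 0.04 untreated (limma adjusted p = 2.18e-09) and -1.28 ± 0.04 with etoposide (limma adjusted p = 1.98e-09). Orc3, another core subunit (chr4:34566781-34614942, minus strand), was 45.5, 44.9 and 49.1 TPM in untreated wild type and 25.7, 23.3 and 27.5 TPM in the untreated knockout, so that the groups did not overlap. Its difference was -0.85 ± 0.13 (limma adjusted p = 0.000157). In treated cells Orc3 was 42.0, 37.0 and 44.2 TPM in wild type and 27.4, 39.2 and 25.9 TPM in the knockout. Replicate 2 of the treated knockout lay among the wild-type libraries. The difference was -0.42 ± 0.13 (limma adjusted p = 0.0168) and -0.60 (adjusted p = 0.000192) without that replicate. It lost its call without replicate 1 (-0.35) or 3 (-0.31) of the treated knockout, without replicate 3 of the treated wild type (-0.37), and with no filter on low levels (adjusted p = 0.0501).

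The other ORC subunits did not follow. Orc6, the smallest subunit, rose by 0.11 untreated and 0.10 with etoposide (limma adjusted p = 0.0324 and 0.0379). Orc1, the main ATPase of the complex, was 115, 116 and 121 TPM in untreated wild type and 113, 111 and 113 TPM in the untreated knockout, without overlap, but the difference of -0.06 ± 0.03 missed the threshold (limma adjusted p = 0.0552). Orc2 and Orc4 were not called in any comparison; their untreated differences were -0.03 ± 0.03 and 0.16 ± 0.08. No ORC gene was called for etoposide in either genotype.

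The DNA just before the transcription start of these genes is given for the ORC pair, which had the lowest values, and for 3 MCM genes: Mcm6 and Mcm10, which were lower in all 4 comparisons between groups, and Mcm5, which had no call. Each run is the 250 bases before the start that RefSeq annotates on GRCm38.p6, 5′ to 3′ on the gene's strand; capitals mark matches to an E2F core (the letters TTGGCGC, the variant TTCGCGC, the variant TTCCCGC and the variant TTGCCGC) or a CCAAT box, on either strand, with overlapping matches counted. The Orc5 window (chr5:22550339-22550588, minus strand) holds neither, and the Orc3 window (chr4:34614943-34615192, minus strand) holds 1 E2F core. The Mcm6 window (chr1:128359706-128359955, minus strand) holds 4 E2F core matches, overlapping in pairs, and 2 CCAAT boxes, the Mcm5 window (chr8:75109259-75109508, plus strand) 3 and 2, and the Mcm10 window (chr2:5012792-5013041, minus strand) 2 CCAAT boxes and no E2F core.
Orc5: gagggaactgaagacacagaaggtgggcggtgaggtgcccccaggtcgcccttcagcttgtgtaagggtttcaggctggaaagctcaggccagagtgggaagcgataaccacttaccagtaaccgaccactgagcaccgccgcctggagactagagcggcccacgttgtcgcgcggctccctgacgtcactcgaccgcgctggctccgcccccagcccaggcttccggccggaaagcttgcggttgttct
Orc3: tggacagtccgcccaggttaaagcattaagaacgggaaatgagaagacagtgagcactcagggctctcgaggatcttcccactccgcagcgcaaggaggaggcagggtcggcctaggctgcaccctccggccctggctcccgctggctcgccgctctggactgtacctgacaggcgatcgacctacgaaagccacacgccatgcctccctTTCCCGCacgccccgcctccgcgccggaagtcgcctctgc
Mcm6: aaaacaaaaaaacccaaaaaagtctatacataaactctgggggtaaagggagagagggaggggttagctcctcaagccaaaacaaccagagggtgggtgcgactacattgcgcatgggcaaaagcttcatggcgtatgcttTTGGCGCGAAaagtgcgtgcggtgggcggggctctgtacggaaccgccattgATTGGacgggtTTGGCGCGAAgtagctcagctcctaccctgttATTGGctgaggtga
Mcm5: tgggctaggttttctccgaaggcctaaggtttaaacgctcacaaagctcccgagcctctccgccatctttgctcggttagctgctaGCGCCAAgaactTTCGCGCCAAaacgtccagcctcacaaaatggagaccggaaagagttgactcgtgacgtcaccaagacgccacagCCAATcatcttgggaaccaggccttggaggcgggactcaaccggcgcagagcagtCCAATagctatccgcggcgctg
Mcm10: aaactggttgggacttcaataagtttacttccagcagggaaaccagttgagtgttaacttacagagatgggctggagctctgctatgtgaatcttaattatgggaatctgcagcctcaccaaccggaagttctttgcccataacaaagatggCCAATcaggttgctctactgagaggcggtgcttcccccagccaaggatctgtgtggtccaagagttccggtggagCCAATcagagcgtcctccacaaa

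RefSeq promoters were matched by symbol for 45 of the 54 genes, with 56 windows. An E2F core lay in 37.5% of those windows, against 7.89% of the 32851 windows of the same length in the table, and at least 1 window of 20 genes (44.4%) held one, against 9.01% of all 27025 genes. A CCAAT box lay in 50% of the windows against 33.8%, and the CHR element TTTGAA in 14.3% against 16.0%. GC content differed too, at a median of 61.4% against 52.4%. Among the replication genes lower in the untreated knockout, 8 of 20 genes with a window (40%) held an E2F core, and among those not called 10 of 21 (47.6%) did. The genes not called had more windows, 30 against 20, and by window the shares were 36.7% for them and 40% for the lower genes. These matches describe letters in a window and are not known binding sites.

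All 3 licensing genes fell in the knockout, with and without etoposide. Cdt1, which brings MCM rings to ORC, was 211, 221 and 221 TPM in untreated wild type and 186, 192 and 192 TPM in the untreated knockout. The difference was -0.20 ± 0.03 (limma adjusted p = 0.000174), and -0.18 ± 0.03 with etoposide (adjusted p = 0.00047). Gmnn, whose protein geminin blocks Cdt1 after origins have fired, was 209, 201 and 202 TPM and 179, 182 and 180.3 TPM in the same groups. In treated cells it was 177, 181 and 189 TPM in wild type and 150.1, 157 and 157 TPM in the knockout, lowest of the 4 groups, while untreated knockout and treated wild type overlapped. Its difference between genotypes was -0.18 ± 0.03 untreated and -0.24 ± 0.03 treated (limma adjusted p = 0.000308 and 3.42e-05). Cdc6, the ATPase that loads MCM with ORC, was 56.7, 57.3 and 59.6 TPM in treated wild type and 50.9, 48.5 and 52.2 TPM in the treated knockout, a difference of -0.19 ± 0.03 (limma adjusted p = 0.000741). Untreated, it was 60.4, 60.2 and 61.6 TPM and 57.6, 55.7 and 57.4 TPM, -0.09 ± 0.03 (adjusted p = 0.0401).

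The MCM2-7 ring, the motor of the helicase, was lower in part: Mcm3, Mcm4 and Mcm6 fell in both comparisons of genotype, Mcm2 had a call only without etoposide and Mcm7 only with it, and Mcm5 had none. Mcm6 was 359, 356 and 352 TPM in untreated wild type and 291, 292 and 301 TPM in the untreated knockout, and in treated cells 315, 323 and 321 TPM and 275, 271 and 276 TPM. The libraries fell into 4 bands with no overlap, highest in untreated wild type and lowest in the treated knockout. The genotype difference was -0.27 ± 0.02 untreated (limma adjusted p = 8.62e-07) and -0.22 ± 0.02 treated (adjusted p = 6.39e-06). The other calls were smaller, at -0.16 and -0.13 for Mcm3, -0.10 and -0.09 for Mcm4 and -0.08 for untreated Mcm2 (adjusted p = 0.0367), with -0.05 for treated Mcm7 (adjusted p = 0.0468). Mcm5 was 431, 426 and 427 TPM in untreated wild type and 451, 442 and 466 TPM in the untreated knockout, above it in each library, at 0.08 ± 0.04 (limma adjusted p = 0.138). In treated cells it was 455, 445 and 455 TPM and 461, 399 and 409 TPM, which overlap, at -0.10 ± 0.04 (adjusted p = 0.0913). Levels of MCM subunits differed: the untreated wild-type mean was 530.2 TPM for Mcm7 and 309.7 TPM for Mcm4.

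**Figure D2:**
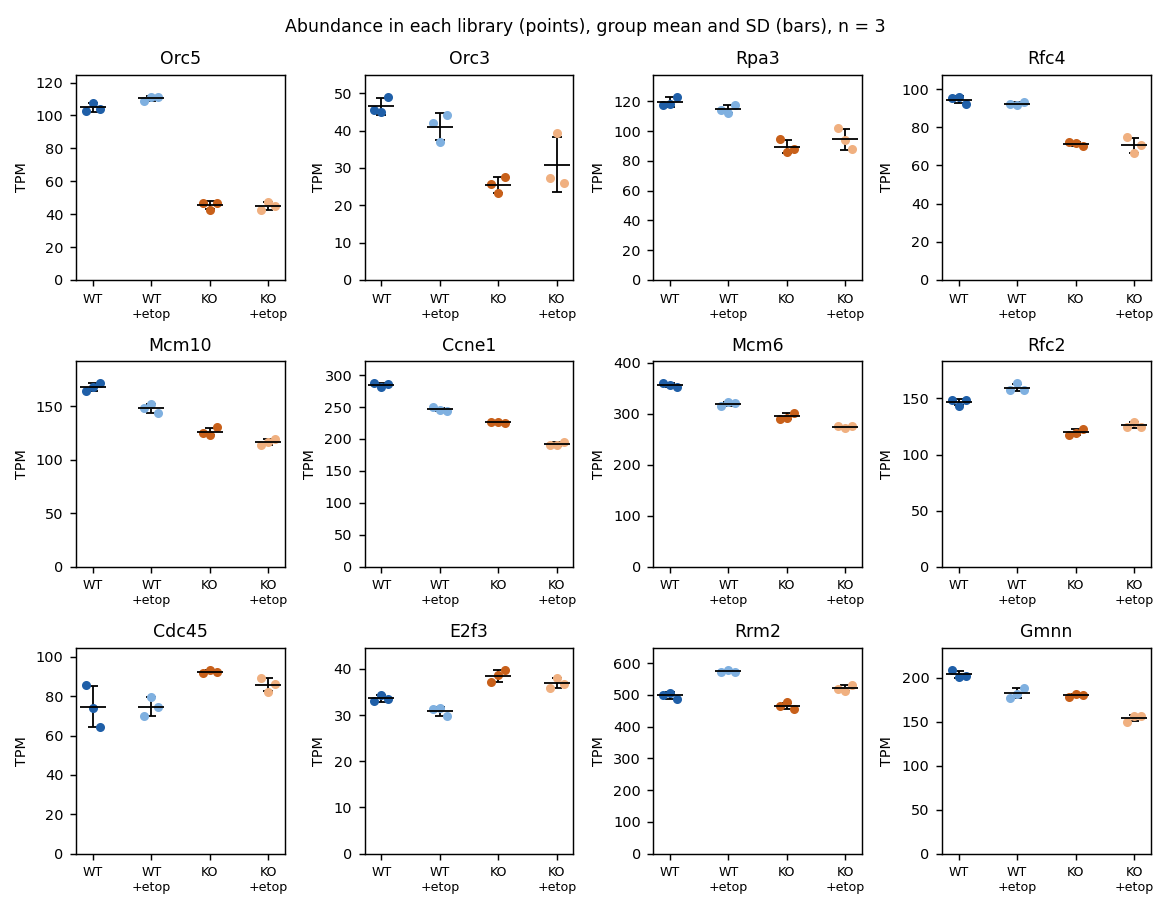
Level in TPM (vertical axes, linear and starting at 0) of single replication genes in each of the 12 libraries, by group, with the group mean and SD as bars. Orc5 and Orc3 show the widest gap between genotypes, Rrm2 rises with etoposide in both genotypes, and Ccne1 steps down with both.

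Among the 8 factors that fire origins or make up the active helicase, Mcm10 and Gins1 fell in both comparisons of genotype, Cdc7 rose in both, Cdc45 rose without etoposide and Dbf4 with it. Gins2, Gins3 and Gins4 were not called there. Mcm10, which joins the helicase as forks start, was 164, 168 and 171 TPM in untreated wild type and 125, 123 and 130.2 TPM in the untreated knockout, a difference of -0.41 ± 0.03 (limma adjusted p = 7.38e-07). With etoposide it was 148, 152 and 144 TPM and 114, 116 and 119.7 TPM, -0.34 ± 0.03 (adjusted p = 3.77e-06). No library of the knockout reached any library of wild type with the same treatment. Gins1, a subunit of the GINS complex, differed by -0.24 ± 0.06 untreated and -0.24 ± 0.06 treated (limma adjusted p = 0.0051 and 0.00637). Gins3, in the same complex, was 24.9, 23.5 and 21.8 TPM in untreated wild type and 23.2, 23.0 and 23.3 TPM in the untreated knockout, -0.01 ± 0.05. Cdc45 was 85.6, 74.1 and 64.5 TPM in untreated wild type, a wide spread, and 91.9, 93.2 and 92.5 TPM in the untreated knockout, 0.32 ± 0.08 (limma adjusted p = 0.00617). With etoposide it was 0.20 ± 0.08 (adjusted p = 0.0603). The kinase Cdc7 rose by 0.21 and 0.14 (limma adjusted p = 0.00143 and 0.0163). Its partner Dbf4 was 129, 125 and 122 TPM in treated wild type and 132, 137 and 146 TPM in the treated knockout, 0.14 ± 0.03 (adjusted p = 0.00665), and 0.08 ± 0.03 untreated (adjusted p = 0.0871).

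The 6 genes of G1/S control split in direction. Ccne1, the cyclin E1 that activates Cdk2, was 287, 282 and 287 TPM in untreated wild type and 227, 226 and 226 TPM in the untreated knockout. In treated cells it was 249, 245 and 244 TPM in wild type and 191, 189.9 and 195 TPM in the knockout. Replicates were close and the 4 groups did not overlap; the genotype difference was -0.33 ± 0.02 untreated and -0.36 ± 0.02 treated (limma adjusted p = 1.02e-07 and 6.82e-08). E2f3, an activating E2F, rose by 0.19 and 0.25 (adjusted p = 0.00166 and 0.000301), while E2f1, another, was -0.16 ± 0.04 untreated (adjusted p = 0.00588) and -0.10 ± 0.04 treated (adjusted p = 0.0592), all by limma. Cdk2, the kinase itself, was 152, 147 and 143 TPM in treated wild type and 137, 138 and 132 TPM in the treated knockout, -0.12 ± 0.03 (limma adjusted p = 0.00627), and -0.03 ± 0.03 untreated. Ccne2 had a wider error, -0.25 ± 0.11 and -0.28 ± 0.11, and no call. E2f2 was at 0.02 and 0.02, with no call.

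Of the clamp and its loader, 5 of 6 genes fell without etoposide and 3 of 6 with it, and the loader subunits differed in size. Rfc4 was 95.3, 96.1 and 92.3 TPM in untreated wild type and 72.1, 71.8 and 70.3 TPM in the untreated knockout, -0.40 ± 0.04 (limma adjusted p = 3.49e-06). Rfc2 was 148, 143 and 148 TPM and 117, 119.6 and 122 TPM, -0.29 ± 0.03 (adjusted p = 4.46e-06). In each the groups did not overlap, and with etoposide the differences were -0.38 ± 0.04 and -0.34 ± 0.03. Rfc5 fell by 0.17 and 0.16. Rfc1, the large subunit, had a call without etoposide alone, at -0.09 (adjusted p = 0.0401) against -0.06. Rfc3 was 78.1, 83.2 and 76.4 TPM in untreated wild type and 82.2, 83.4 and 82.1 TPM in the untreated knockout, with overlap, at 0.06 ± 0.05 (adjusted p = 0.309). Pcna, the clamp the loader opens, was 612, 605 and 597 TPM in untreated wild type and 569.9, 578 and 592 TPM in the untreated knockout, -0.06 ± 0.02 (adjusted p = 0.024). RPA coats single-stranded DNA, and 2 of its 3 subunits fell. Rpa3, the smallest, was 118, 118 and 123 TPM in untreated wild type and 94.5, 86.3 and 88.2 TPM in the untreated knockout, -0.41 ± 0.05 (limma adjusted p = 2.95e-05), and -0.28 ± 0.05 with etoposide (adjusted p = 0.000735). Rpa2 was at -0.11 and -0.15, and Rpa1, the large subunit, at -0.06 ± 0.03 and -0.01 ± 0.03 with no call.

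Few polymerase and primase genes were called between genotypes: 8 of 9 were not called untreated and 8 of 9 with etoposide. Pola1, the catalytic subunit of polymerase alpha, was 72.7, 74.6 and 76.2 TPM in untreated wild type and 69.3, 68.9 and 69.0 TPM in the untreated knockout, -0.11 ± 0.04 (limma adjusted p = 0.0338). Prim1, the catalytic primase, was 151, 149 and 149 TPM in treated wild type and 134, 138 and 140.3 TPM in the treated knockout, -0.12 ± 0.02 (adjusted p = 0.00221). Each of those calls was made in 1 treatment. The remaining 7, Pola2, Prim2, Pold1, Pold2, Pold3, Pole and Pole2, had untreated differences from -0.05 to 0.06. Lagging-strand genes were close to zero as well: the flap nuclease Fen1 was 113, 114 and 105 TPM in untreated wild type and 113, 112 and 112 TPM in the untreated knockout, and DNA ligase Lig1 was 243, 249 and 241 TPM and 238, 249 and 240.2 TPM. Both pairs of groups overlapped. Wdhd1, which tethers polymerase alpha to the helicase, was at 0.02 ± 0.03 and -0.02 ± 0.03. Of the genes that make deoxynucleotides, Rrm1 and Rrm2, the subunits of ribonucleotide reductase, and Tk1, the salvage thymidine kinase, fell in both comparisons. Rrm2 was 501, 507 and 488 TPM in untreated wild type and 464, 477 and 457 TPM in the untreated knockout, -0.10 ± 0.02 (limma adjusted p = 0.00353). Rrm1 was at -0.12 and -0.15, Tk1 at -0.17 and -0.25, and Tyms, thymidylate synthase, at 0.04 ± 0.04 and 0.08 ± 0.04 with no call.

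**Figure D3:**
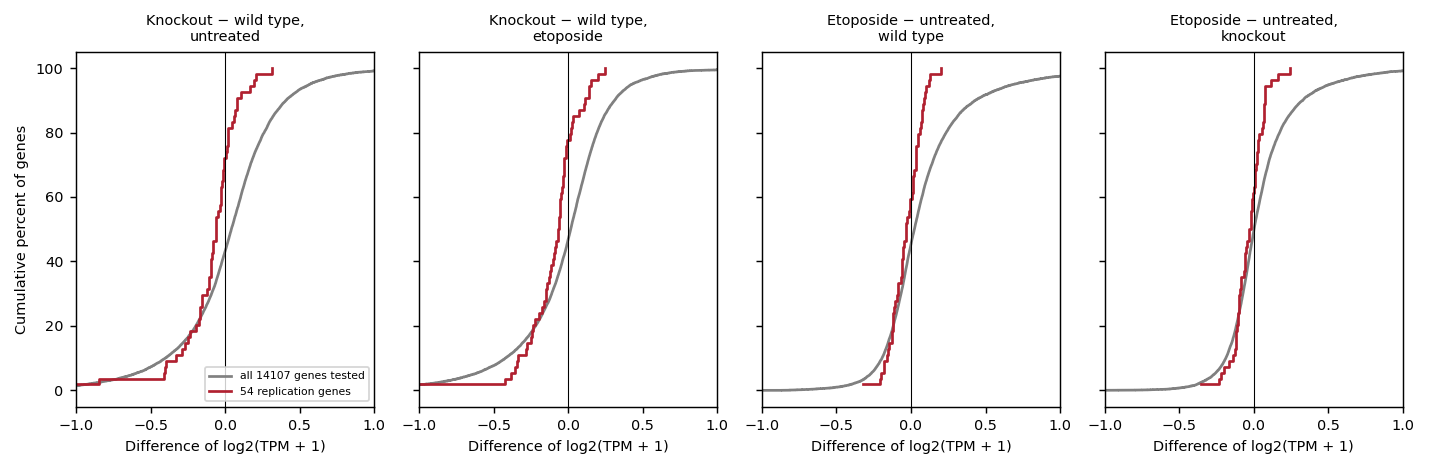
Cumulative percent of genes (vertical axis) against the difference of log2(TPM + 1) between groups (horizontal axis, shown from -1 to 1) for the 54 replication genes (red) and all 14107 tested genes (grey), 1 panel for each of the 4 comparisons between groups. The red curve lies mostly left of the grey curve on the right side of each panel, where no replication gene rose by more than 0.32.

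For etoposide 20 replication genes were called in wild type and 16 in the knockout, fewer than the 28 and 26 between genotypes, and the share of all tested genes called dropped likewise. In wild type 5 of 54 rose and 15 fell, where 20.8% and 13.5% of all tested genes, 34.3% in all, did. In the knockout 2 rose and 14 fell, against 14.5% and 10.5%, 25% in all. Treated libraries lay wholly above untreated ones for 12 genes and below for 18 in wild type, against 27% and 19.6% of all tested genes, and for 7 and 18 in the knockout, against 21.4% and 18.1%. No change reached 1.5-fold in either genotype, as 6.68% and 3.79% of all tested genes did with a call. The median over the 54 genes was -0.03 in wild type, against 0.02 for all tested genes, and -0.02 against 0.00 in the knockout. In wild type, scaling by median of ratios gave -0.06, against -0.004 for all tested genes, and leaving out replicate 2 of the untreated libraries gave -0.02, against 0.02. With quantile normalization 7 rose and 12 fell in wild type (13.0% and 22.2%), where 15.4% and 19.6% of all tested genes did, and the medians were -0.04 and -0.04, so the gap between replication genes and all tested genes was small there. In the knockout it gave 3 and 11 (5.56% and 20.4%), where 12.6% and 13.0% of all tested genes were called, with medians of -0.02 and -0.03. The count of 5 became 3 without replicate 2 or 3 of the treated wild type. Each etoposide comparison shares its untreated or treated libraries with the comparisons of genotype, so their values are given side by side and not counted as agreement. Mcm7 and Rrm2 rose in both genotypes. Rrm2 was 572, 578 and 573 TPM in treated wild type and 517, 513 and 533 TPM in the treated knockout, above the untreated libraries of its own genotype, with rises of 0.20 ± 0.02 (limma adjusted p = 2.22e-05) and 0.16 ± 0.02 (adjusted p = 0.000249). Mcm7 rose by 0.10 and 0.07. Rfc2, Pole and Rrm1 had a call in wild type alone, at 0.12, 0.13 and 0.08. Pole, the catalytic subunit of polymerase epsilon, was 67.4, 69.0 and 64.0 TPM untreated and 70.4, 74.2 and 74.4 TPM treated in wild type.

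**Figure D4:**
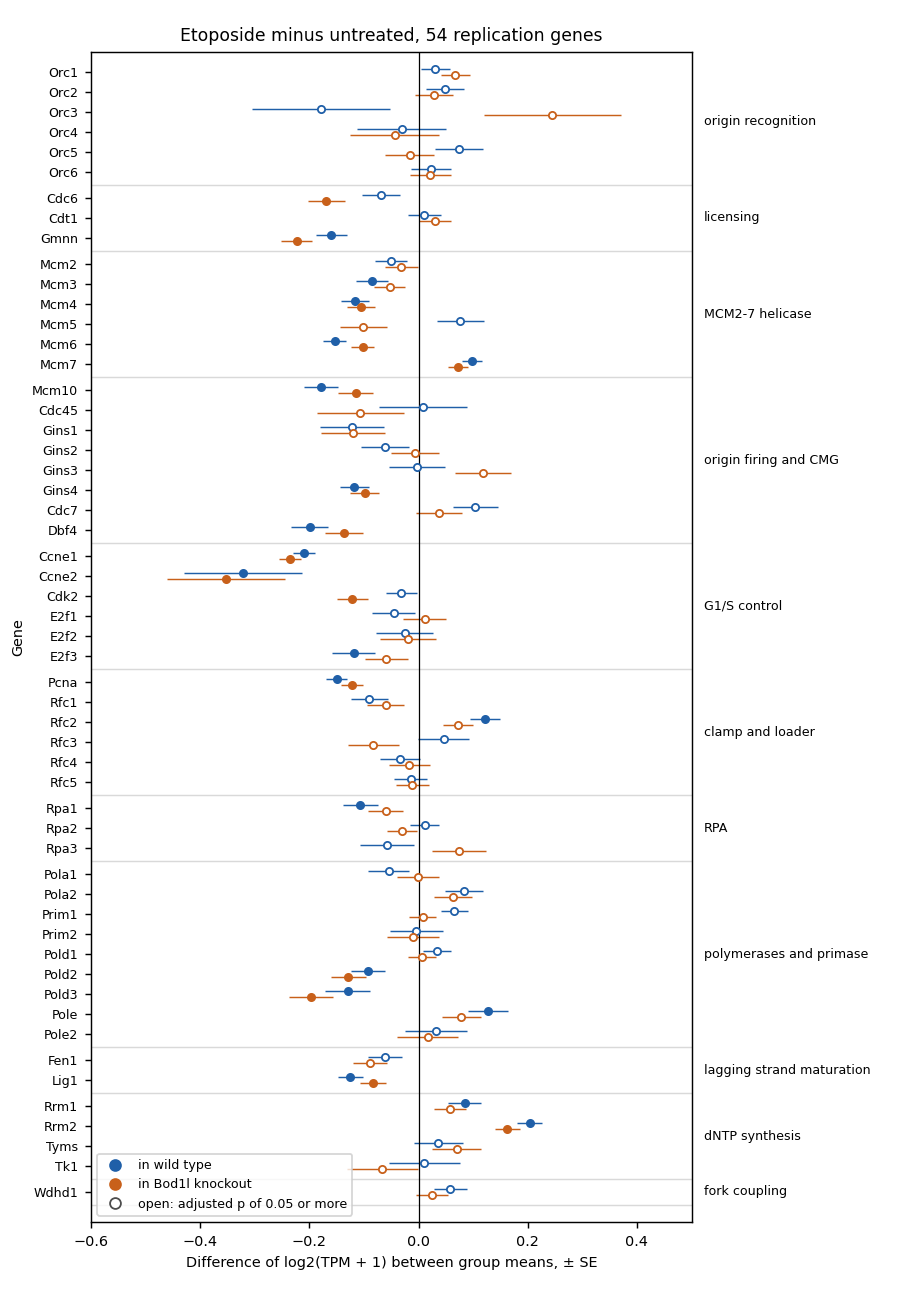
Difference between etoposide-treated and untreated cells on the log2(TPM + 1) scale (horizontal axis, bars ± SE of the limma fit on 3 libraries a group) for each of the 54 replication genes by role, in wild type and in the knockout. Filled points passed an adjusted p of 0.05. Ccne2 lies lowest, at -0.32 and -0.35, and Rrm2 rose by 0.20 and 0.16.

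A set of 12 genes fell with etoposide in both genotypes: Mcm4, Mcm6, Mcm10, Gmnn, Gins4, Dbf4, Ccne1, Ccne2, Pcna, Pold2, Pold3 and Lig1. How many of all tested genes fell in both was not counted, so the number is not shown to be particular to replication genes. Ccne1 fell by 0.21 ± 0.02 in wild type and by 0.24 ± 0.02 in the knockout (limma adjusted p = 5.79e-06 and 4.32e-06). Ccne2 was 12.6, 14.3 and 12.4 TPM untreated and 12.1, 9.17 and 9.65 TPM treated in wild type, and 11.0, 10.6 and 10.9 TPM and 6.98, 9.01 and 8.98 TPM in the knockout. Its changes were -0.32 ± 0.11 and -0.35 ± 0.11 (adjusted p = 0.0364 and 0.0316), and no filter on low levels ended both calls (adjusted p = 0.0837 and 0.0753). The wild-type call was also lost without replicate 1 or 2 of the untreated or 2 or 3 of the treated wild type (adjusted p up to 0.135), and the knockout call without any single untreated knockout library or without replicate 1 of the treated knockout (adjusted p up to 0.125). Pcna was 537, 544 and 553 TPM in treated wild type and 530.3, 535 and 533 TPM in the treated knockout, below the untreated libraries of each, -0.15 ± 0.02 and -0.12 ± 0.02 (adjusted p = 8.77e-05 and 0.000712). Dbf4 changed by -0.20 ± 0.03 in wild type and -0.14 ± 0.03 in the knockout. Pold3, a subunit of polymerase delta, was 56.9, 56.7 and 52.5 TPM untreated and 48.0, 47.7 and 48.7 TPM treated in the knockout, -0.20 ± 0.04 (adjusted p = 0.00368), and -0.13 in wild type. Lig1 changed by -0.12 and -0.08. Mcm3, E2f3 and Rpa1 had a call in wild type alone, and Cdc6 and Cdk2 in the knockout alone; Rpa1 was 279, 295 and 294 TPM untreated and 269, 269.6 and 267 TPM treated in wild type, -0.11 ± 0.03 (adjusted p = 0.0211). Mcm4, Mcm6, Mcm10, Gmnn and Ccne1 were lower in all 4 comparisons between groups. Those comparisons share libraries and are not independent, and the share of all tested genes lower in all 4 was not counted. Under at least 1 alternative the wild-type calls of Ccne2, E2f3, Mcm3, Mcm4, Pold2, Pold3, Rpa1, Pole and Rrm1 were lost, as were the knockout calls of Ccne2, Dbf4, Gins4, Lig1, Mcm10, Mcm4 and Mcm6.

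Whether etoposide acted differently in the genotypes was tested by the interaction, the change in the knockout minus the change in wild type. None of the 54 genes was called by limma, where 1.23% of all tested genes (174) were, 0.0709% higher and 1.16% lower, and 3 had an unadjusted p under 0.05 (1604 of all tested genes did): Mcm5, Orc3 and Cdk2. The count of 174 was 104 with no filter on low levels and 102 with quantile normalization. It was 93 to 115 without replicate 2 of the untreated wild type, any treated wild-type library, replicate 1 of the untreated knockout, or replicate 1 or 3 of the treated knockout. So a call in a single genotype above is not shown to differ between genotypes. Mcm5 was -0.18 ± 0.06 (limma adjusted p = 0.262) and passed without replicate 1 of the treated knockout (-0.24, adjusted p = 0.00925). Orc3 was 0.42 ± 0.18 (adjusted p = 0.381), and -0.09 ± 0.04 was the value for Cdk2 (adjusted p = 0.432). Orc1, Orc2, Orc4, Gins2, Gins3, E2f2, Rfc3, Pola2, Prim2, Pold1, Pole2, Fen1, Tyms and Wdhd1 had no call in any comparison, nor had Mcm5, 15 genes in all. The share of all tested genes with no call in any comparison was not counted. Over the 12 libraries Orc1 ranged from 111 to 122 TPM, Gins2 from 91.3 to 108 TPM, Pold1 from 107 to 115 TPM and Tyms from 63.6 to 73.6 TPM. Wdhd1 ranged from 71.7 to 78.8 TPM. These narrow ranges do not show the levels to be equal.

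Related genes outside the 54 were counted by list, beside the shares of all tested genes given above. Of 22 nucleotide supply genes, 14 were lower and 1 higher in the untreated knockout, and 12 and 1 with etoposide (63.6% and 54.5% lower). Dut, which removes dUTP, had a level of 132 ± 2.53 TPM in untreated wild type and 104 ± 1.66 TPM in the untreated knockout, -0.35 ± 0.02 (limma adjusted p = 2.74e-07), and the purine enzyme Gart 358 ± 6.64 and 267 ± 4.76 TPM, -0.42 ± 0.02 (adjusted p = 4.44e-08). Cad, which starts pyrimidine synthesis, rose to 238 ± 8.12 TPM from 202 ± 3.12 TPM. Of 15 chromatin assembly genes, 8 fell and 2 rose untreated and 8 and 1 with etoposide (53.3% lower in each). Uhrf1, which brings DNA methylation to new DNA, was among those that fell, at -0.22 ± 0.02 untreated (adjusted p = 1.69e-05). Of 26 other fork factors, 8 rose and 6 fell untreated (30.8% and 23.1%, near the 28.1% and 21.5% of all tested genes), and 9 and 5 with etoposide. Recql4 rose by 0.44 and Topbp1, an initiation and checkpoint factor, was -0.28 ± 0.02. Of 29 genes of E2F, RB and other G1/S control, 8 rose and 10 fell untreated (27.6% and 34.5%), and 8 and 9 with etoposide. Of 25 G2/M genes, 8 rose and 5 fell in the untreated knockout (32% and 20%, again near all tested genes), while between treated genotypes 14 rose and 3 fell (56% and 12%, against 22.5% and 21.7%), with a median of 0.10 against 0.02. Etoposide in wild type gave 5 up and 11 down in the G1/S list and 1 up and 11 down in the G2/M list, and in the knockout 5 and 9, and 4 and 6. Plk1, a mitotic kinase, was -0.40 ± 0.04 in wild type (adjusted p = 7.13e-06).

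Some replication genes share a start region with a gene on the opposite strand. Starts lay within 1000 bases of an opposite neighbour for 22 genes, and 18 of those had a neighbour among the tested genes. In untreated cells 3 pairs fell together, Orc5 with 6030443J06Rik, Orc3 with Rars2 and Mcm4 with Prkdc, and Orc6 rose with Vps35. Over all tested genes 21.5% were lower and 28.1% higher there. How often opposite-strand pairs over all genes move together was not counted. These joint calls are therefore not shown to be particular to replication genes. Rars2, a mitochondrial arginine tRNA ligase, was 52.2, 50.7 and 50.7 TPM in untreated wild type and 24.0, 23.8 and 25.9 TPM in the untreated knockout, -1.03 ± 0.04 (limma adjusted p = 5.88e-09). In 4 pairs the replication gene was not called and the neighbour fell. Smyd4, beside Rpa1, was 17.4, 19.2 and 17.3 and 9.28, 9.16 and 8.77 TPM, -0.91 ± 0.05 (adjusted p = 9.07e-08), and Pxmp2, beside Pole, -0.64 ± 0.08; the others were Slc25a40 beside Dbf4 and Tmem258 beside Fen1. The Tmem258 call, -0.15 ± 0.05, was lost with no filter on low levels, with the compared groups alone, without replicate 1 of untreated wild type (-0.08) and without replicate 3 of the untreated knockout. Umad1, at 1.90 TPM in wild type and 2.96 TPM in the knockout, had a call for higher where Rpa3 fell, but not with etoposide, and 6 alternatives ended it (adjusted p up to 0.137), among them leaving out replicate 2 of the untreated wild type (0.31 from 0.45). The Vps35 call was lost without replicate 1 of the untreated wild type (adjusted p = 0.0537). In 2 more pairs the replication gene was not called and the neighbour rose, Ap4m1 beside Mcm7 and Socs4 beside Wdhd1. In 3 the replication gene fell and the neighbour was not called (Pcna, Rfc5 and Tk1), and in 4 neither was called. With etoposide Dbf4 rose in the knockout while Slc25a40 fell. So neighbours of replication genes did not move with them throughout. The gene bodies of Rpa1 and Smyd4, Dbf4 and Slc25a40, and Fen1 and Tmem258 overlap, and whether counting used strand is not stated, so values in these pairs may share reads. Taken as the plus-strand start minus the minus-strand start, their distances were -219, -59 and -191 bases. Bodies also overlap for Mcm7 and Ap4m1 (-392 bases), Orc4 and Mbd5 (-776), and Ccne2 and A630034I12Rik (-741). The same holds for Tk1 and Afmid (-584) and for Pole2 and the untested Klhdc1 (-450), so values in these pairs may share reads as well. For Orc3 and Rars2 the distance was -1 base, so by the annotated starts their bodies barely overlap.

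**Figure D5:**
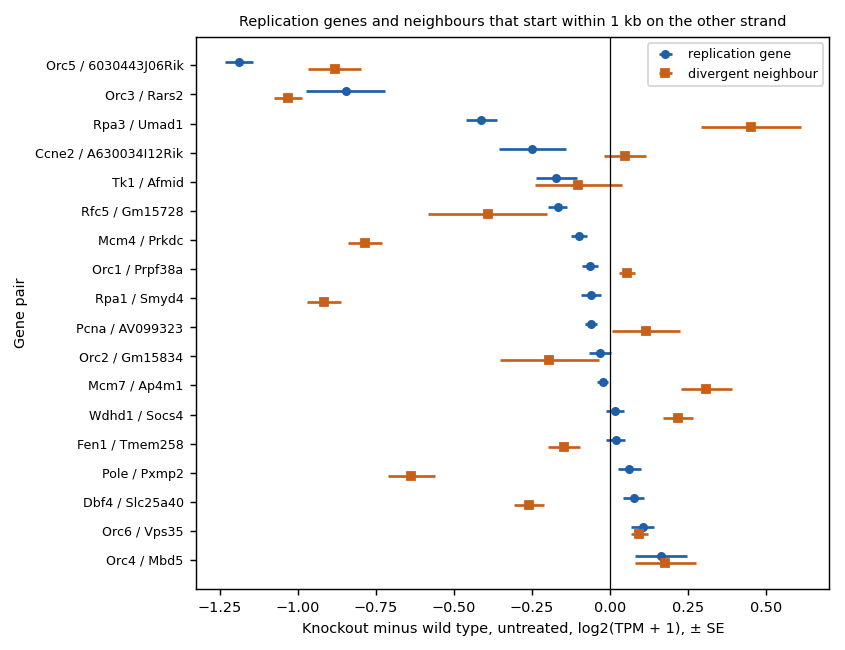
Knockout minus wild type on the log2(TPM + 1) scale in untreated cells for replication genes and their opposite-strand neighbours within 1000 bases, 18 pairs. Rpa1 and Pole stay near zero while Smyd4 and Pxmp2 fall, and Orc5 and Orc3 fall with their neighbours.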

How the data were processed

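Per the labels' protocols, poly(A) RNA was depleted of ribosomal RNA and made into strand-specific libraries. Trim Galore 0.6.6, cutadapt 3.4, HISAT2 2.2.1, StringTie 2.2.1 and GRCm39 are named, per the submitters' processing notes. Per the file headers, the authors deposited a TPM value for each gene, relative to gene length and the library's total. The FPKM values the authors deposited are relative to gene length and mapped fragments. Coverage, as deposited, is the mean read depth of a gene, and their ratio to FPKM gave the aligned gigabases. These values are not counts, so no count model was used.

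Entries with the same gene ID were summed. Values were taken as log2(TPM + 1) for 14107 genes with a mean of at least 1 TPM, and limma 3.58.1 in R 4.3.3 was fitted with 4 group means and a variance trend (residual degrees of freedom 8, prior 3.91). The Benjamini-Hochberg adjustment ran over all tested genes within each of 5 comparisons. The replication genes, their roles and the related lists were chosen with earlier results of these data known. Values in every library are given for the gene of lowest adjusted p in each role and comparison, changes of at least 0.5, the highest and lowest means and Bod1l; other genes so shown were chosen after their values were seen. From each related list, up to 4 genes of lowest adjusted p could be named, and of opposite-strand neighbours any. Alternatives were a pseudocount of 0.1, no filter or a filter of 5 TPM, FPKM, median-of-ratios and quantile scaling, a replicate block, the compared groups alone, robust variances and leaving out each library. The code was tested on simulated data. Motifs were searched in RefSeq windows on GRCm38.p6, matched by symbol. Tables and plots used pandas 2.3.3, numpy 2.4.6 and matplotlib 3.10.9 under Python 3.11.15.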

Additional observations from a re-analysis of the deposited data

Results flagged for a closer look

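In 3 regulators of S phase entry outside the replication genes, the response to etoposide differed between genotypes by the interaction test (limma, Benjamini-Hochberg over all tested genes). Rb1, which restrains E2F factors, was 10.7, 10.3 and 10.3 TPM in untreated wild type and 27.7, 27.1 and 26.0 TPM in treated wild type. In the knockout it was 18.7, 18.6 and 20.0 TPM untreated and 33.2, 35.5 and 37.9 TPM treated. It rose in both genotypes, by 1.29 ± 0.05 in wild type and 0.86 ± 0.05 in the knockout, and the interaction was -0.42 (adjusted p = 0.0187). That call was lost without replicate 2 of the untreated wild type (-0.41, adjusted p = 0.0513) or replicate 1 or 2 of the treated wild type (-0.40 and -0.42, adjusted p = 0.0533 and 0.0521). Rbl2, a relative of Rb1, rose by 1.14 ± 0.05 in wild type and 0.67 ± 0.05 in the knockout, with an interaction of -0.47 (adjusted p = 0.00766). Cdkn1a, the p21 inhibitor of cyclin-dependent kinases, rose by 0.60 ± 0.04 and 0.37 ± 0.04, with an interaction of -0.23 (adjusted p = 0.0449). The Cdkn1a call was lost under most alternatives, up to an adjusted p of 0.118 without replicate 3 of the treated wild type.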

How the results depend on the processing

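No called change of a replication gene reversed under the alternatives tried, though the interaction median changed sign. Of the calls between genotypes, 18 of 24 lower and 3 of 4 higher genes in untreated cells kept their call in all 22 settings, as did 19 of 22 and 2 of 4 with etoposide. For etoposide these counts were 8 of 15 and 3 of 5 in wild type and 7 of 14 and 2 of 2 in the knockout.

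Scaling moved the median difference of the replication genes. In untreated cells it was -0.089 with FPKM, -0.084 with median-of-ratios and -0.049 with quantile scaling, and with etoposide -0.081 with FPKM. The untreated median over all tested genes moved too, at 0.0077, 0.020 and 0.029 in that order, against 0.040 in the main fit. For the replication genes, the etoposide median in wild type was -0.046, -0.061 and -0.040, again in that order. Their etoposide median in the knockout was -0.032 with median-of-ratios, and that of the interaction was 0.000993 with FPKM and 0.013 with median-of-ratios. Of etoposide calls over all genes in wild type, 60.7% were higher, against 51.0% with median-of-ratios and 43.9% with quantile scaling. The interaction count over all genes was 174, and 104 with no filter and 102 with quantile scaling. The cause of these shifts was not tested.

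Without single libraries the medians were -0.0713 to -0.0598 between untreated genotypes, -0.0835 to -0.0478 between treated ones, -0.0392 to -0.0202 for etoposide in wild type, -0.0351 to -0.0208 in the knockout and -0.0239 to 0.0034 for the interaction. Genes higher numbered 2 to 5 between treated genotypes and 3 to 5 for etoposide in wild type. The interaction gave 0 to 1 lower replication genes and 93 to 131 calls over all genes; the count fell past 1.5 times without replicate 2 of the untreated wild type, any treated wild-type library, replicate 1 of the untreated knockout, or replicate 1 or 3 of the treated knockout.

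The labels number replicates 1 to 3 in each group and do not say what a shared number means. Over 18 same-numbered pairs the correlation of deviations was -0.0449 to 0.0453, and 5 of 12 libraries correlated best with their own number. No shared deviation was visible, but these values cannot show whether same-numbered libraries came from 1 culture or day. A replicate block gave 23 lower and 4 higher genes in each comparison of genotype, 13 and 4 for etoposide in wild type, 13 and 2 in the knockout, and 0 for the interaction. The fit on the compared groups alone was not run for the interaction. The SE of a difference between genotypes had a median of 0.03 over the replication genes and was highest for Orc3, at 0.13, and Ccne2, at 0.11; what limits these was not tested.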

Other observations

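Claspin, a fork checkpoint mediator, stands in the tables as Clspn, a symbol outside the set of names. It was 35.6, 35.6 and 33.6 TPM in untreated wild type and 35.0, 33.4 and 33.3 TPM in the untreated knockout. Treated wild type stood at 36.4, 36.6 and 35.6 TPM and the treated knockout at 34.7, 34.2 and 35.3 TPM. None of its 4 comparisons between groups was called by limma (adjusted p = 0.369, 0.223, 0.323 and 0.549). The annotated span of the replication genes had a median of 15.5 kb for the 24 lower in the untreated knockout. It was 26.6 kb for the 4 higher and 23.7 kb for the 26 not called. Spans by call over all tested genes were not taken, and a link of span with direction was not tested.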
